A study of Mus musculus with 6 samples.

Results

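The Arp2/3 complex and its activators were examined in regulatory T cells (Tregs) that had lost the zinc finger protein Zfp335. The members were taken by name from the gene symbols of the count table: 8 genes that encode subunits of the complex (Actr2, Actr3, Arpc1a, Arpc1b, Arpc2, Arpc3, Arpc4 and Arpc5) and 2 genes that encode activators (Was and Wasf2). All 10 were found among the 13709 gene rows, and all 10 passed the filter on low counts. Their expression was measured by bulk RNA-Seq of sorted CD4+YFP+CD25+ Tregs from 3 WT samples of Foxp3Cre mice and 3 KO samples of Foxp3Cre Zfp335 fl/fl mice on the C57BL/6 background, which were 2 weeks old per the study's methods. WT and KO mice both carry a Cre recombinase fused to YFP behind the stop codon of Foxp3. The design thus directs the loss of Zfp335 to cells that express or have expressed Foxp3. Loss in other cells was not tested here. The labels name lymph nodes in one field and spleen in another, and whether a sample came from 1 mouse or several was not stated, so the p-values measure the spread between these samples.

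The Arp2/3 complex binds the side of an existing actin filament and starts a new filament from it as a branch. Actr2 and Actr3 encode the actin-related proteins Arp2 and Arp3, which together form the first subunits of the new branch, and the Arpc genes encode the subunits that hold them to the mother filament. The complex is nearly inactive by itself and is switched on by proteins of the WASP family, among them WASP, encoded by Was, and WAVE2, encoded by Wasf2. In T cells, branched actin supports the contact with antigen-presenting cells, migration and the recycling of surface receptors, and loss of WASP causes the Wiskott-Aldrich immunodeficiency. Actr2 was also among the candidate genes that the study followed up, and the regions that Zfp335 bound at these genes were examined there. The study chose these candidates from its single-cell data on Treg subsets, not from the samples used here. It also measured them in Tregs of tamoxifen-treated ERCre Zfp335 fl/fl mice and of heterozygous Foxp3Cre/+ Zfp335 fl/fl mice. Actr2 was further overexpressed there in Zfp335-deficient Tregs. The direction of Actr2 in the study's single-cell data and in those other Tregs was not compared with the one given here.

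The sequences before the starts of Actr2 and of its partner Actr3 are shown because these genes encode the paired actin-related proteins and differed in response, with Actr2 alone passing the cutoffs. They come from RefSeq (GRCm38.p6, the assembly that mm10 denotes), in which all 10 members had an entry, and they cover the 250 bases before the annotated start, 5′ to 3′ on the strand of the gene. Both genes lie on the minus strand, Actr2 with chr11:20112952-20113201 and Actr3 with chr1:125435728-125435977. Capitals mark matches on either strand to GGGCGG (bound by Sp1), CCGGAAGT (bound by Ets factors) and CCAAT.
Actr2: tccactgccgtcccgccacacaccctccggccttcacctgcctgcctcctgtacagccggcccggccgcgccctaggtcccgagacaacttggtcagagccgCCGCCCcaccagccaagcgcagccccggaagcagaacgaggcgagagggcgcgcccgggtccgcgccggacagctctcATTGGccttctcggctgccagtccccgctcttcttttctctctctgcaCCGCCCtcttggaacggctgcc
Actr3: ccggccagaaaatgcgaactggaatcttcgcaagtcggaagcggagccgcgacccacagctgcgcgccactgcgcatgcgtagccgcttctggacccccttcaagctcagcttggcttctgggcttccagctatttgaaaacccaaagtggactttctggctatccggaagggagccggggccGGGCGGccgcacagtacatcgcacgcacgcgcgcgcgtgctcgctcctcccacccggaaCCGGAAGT

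The Actr2 window held 2 matches to GGGCGG and 1 to CCAAT, and the Actr3 window held 1 match to GGGCGG and 1 to CCGGAAGT. GGGCGG was present in 6 of the 10 members and in 32.7% of all 32851 windows of this length, or 54.4% of those whose genes are in the table. CCGGAAGT was present in 4 members (Actr3, Arpc1a, Arpc3 and Arpc4) and in 2.88% of all windows, or 5.55% of those of the table. CCAAT was present in 3 members (Actr2, Arpc5 and Wasf2) and in 33.9% of all windows. The CArG box, which the serum response factor binds in many actin genes, was matched in 1 member, Arpc4, and in 1.47% of all windows. Matches to different motifs did not overlap in the Actr2 and Actr3 windows. Was had no match to any of the 4 motifs. For 2 members the window ran past the gene start given below. That of Arpc2 ended at 74236516 against a start at 74236490, and that of Wasf2 at 133130632 against 133130531.

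Total counts per sample ranged from 32032631 to 40728419. Zfp335, the targeted gene, was 99.4 ± 4.50 CPM (CPM, the usual scaling of counts to the library total, here after TMM adjustment; mean ± SD, n = 3) in WT and 38.3 ± 1.66 CPM in KO, in the direction of the labels. WT replicate 3 stood apart from WT replicates 1 and 2 on the second principal component (-58.9 against 22.1 and 34.4), and values without it are given where they bear on a result. The Treg and CD4 T cell markers Foxp3, Il2ra, Ctla4, Ikzf2, Cd4, Cd3e and Cd3g were present in every sample, with sums of 4425 to 5461 CPM in WT and 3613 to 3725 CPM in KO. Foxp3 itself, the transcription factor that defines Tregs, was lower in KO (log2 fold change of -0.88), as was Ikzf2 (-1.11), and 0 of the 7 were called higher. Foxp3 was 738, 642 and 1190 CPM in WT replicates 1 to 3, so WT replicate 3 widened its difference. In KO replicates 1 to 3 Foxp3 was 460, 472 and 463 CPM. Il2ra (-0.12), Ctla4 (-0.41), Cd3e (-0.45), Cd3g (-0.49) and Cd4 (0.26) were not called. In bulk RNA, fewer cells of a type and less RNA per cell cannot be told apart.

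Actr2 was higher in KO Tregs by 1.62-fold, and it was the member that passed the study's cutoffs of a fold change above 1.5, p under 0.05 and adjusted p under 0.1. Each of the other 9 members had a higher mean in KO by less than this, with fold changes from 1.09 for Was to 1.31 for Arpc3. Thus 1 of 10 members was called higher and 0 lower by edgeR, against 11.9% of all genes called higher and 12.5% called lower, or 24.4% in either direction, so the share of members called was not above that of all genes. DESeq2 called the same single member, and 8 members had an unadjusted edgeR p under 0.05. When the fold cutoff was set aside, 7 of 10 members were higher at an adjusted p under 0.05 and 0 were lower, where the shares of all genes were 19.2% and 19.4%. This count was 9 with GC and length offsets, 8 with DESeq2, 6 with library totals alone, and 5 without any 1 of the KO samples. The members had WT means from 66.2 to 837 CPM, and the shares of all genes were not matched to them for expression level. In 9 of 10 members every KO sample lay above every WT sample, as was the case for 26.2% of all genes, and the reverse held for 0 members and 27.6% of all genes. The log2 fold change was above 0 for all 10 members and for 47.1% of all genes, and its median was 0.32 over the members and -0.04 over all 13594 genes tested.

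**Figure D1:**
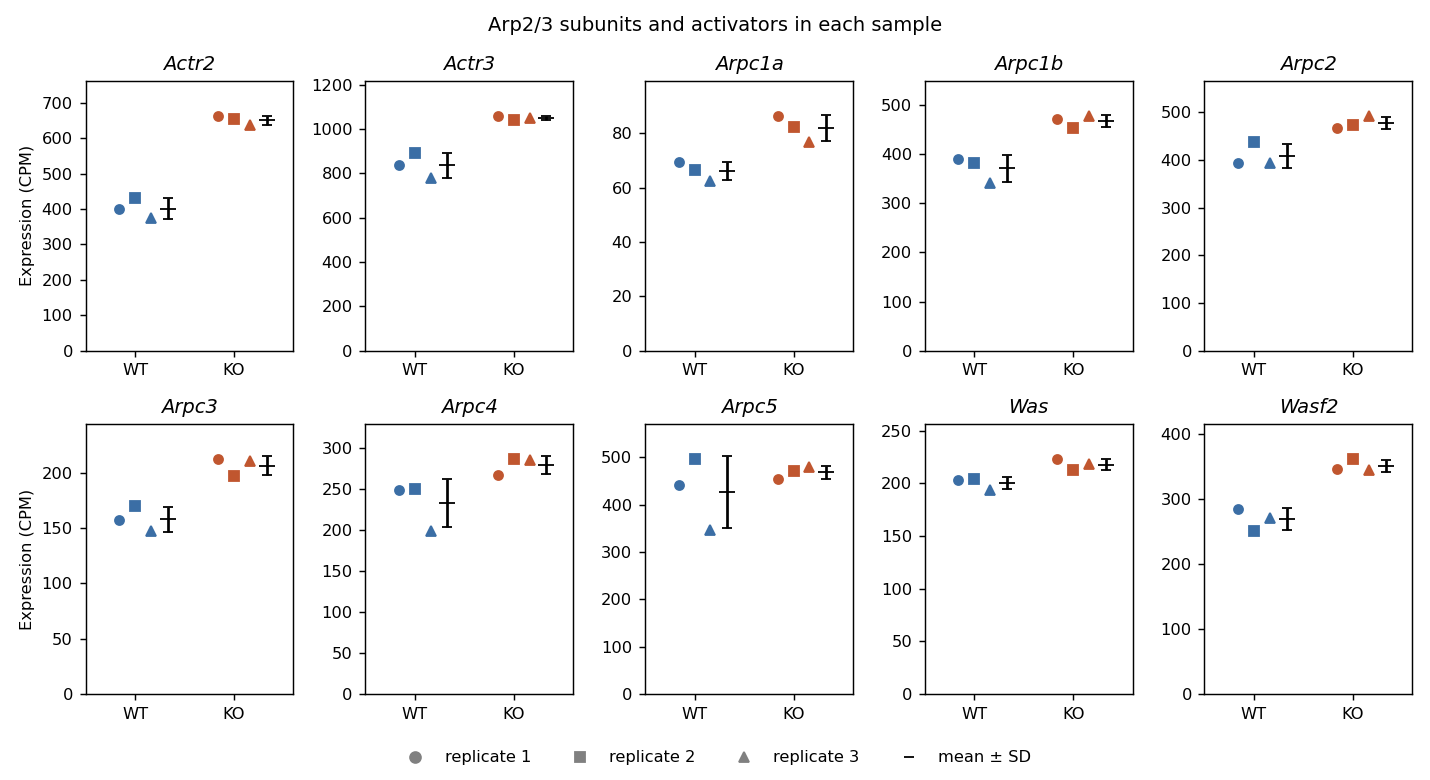
Expression of each member in CPM on a linear axis from 0, for 3 WT and 3 KO samples, with the mean ± SD beside the points. The KO samples lie above the WT samples in each panel but that of Arpc5, where WT ranged from 346 to 496 CPM, and the gap is widest for Actr2.

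The actin-related proteins were considered first. Actr2, on chromosome 11 at 20062304 to 20112951 (mm10), was 399, 432 and 374 CPM across the WT samples in replicate order, against 662, 653 and 636 CPM across the KO samples. The 3 KO values lay close together and above each WT value. It rose from a WT mean of 401 ± 29.2 CPM to a KO mean of 650.2 ± 13.3 CPM (SD, n = 3; log2 fold change of 0.70 with an SE of 0.074 and an edgeR adjusted p of 0.000391; 95% interval 0.53 to 0.87). Without WT replicate 3 the log2 fold change was 0.64, and with glmTreat, which tests against a fold change of 1.5 rather than against 0, Actr2 did not pass (adjusted p 0.174).

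Actr3, on chromosome 1 at 125392905 to 125435727, was 838, 893 and 780.0 CPM across the WT samples in replicate order, against 1059, 1041 and 1052 CPM across the KO samples. It was the member with the most counts, and the groups did not overlap. Its log2 fold change was 0.33 (SE 0.07; 95% interval 0.16 to 0.49; edgeR adjusted p 0.00821), under the fold cutoff. The 95% interval of Actr3 ended below the start of that of Actr2. Since Arp2 and Arp3 act as a pair, the counts of both genes were set against each other within each sample, a measure added after the values were seen. Per 100 counts of Actr3 there were 47.6, 48.4 and 47.9 counts of Actr2 in WT replicates 1 to 3, and 62.5, 62.7 and 60.4 in KO replicates 1 to 3. The mean was 47.9 ± 0.404 in WT and 61.9 ± 1.28 in KO (SD, n = 3; two-sided exact permutation p = 0.10, the smallest that 3 against 3 samples allow). WT replicate 3, in which both genes were lowest, had the same ratio as the other WT samples within their spread.

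The subunits that join the actin-related proteins to the mother filament were compared next. Arpc2 and Arpc4 form the core of the complex. Arpc2, on chromosome 1 at 74236490 to 74268209, was 393, 437 and 393 CPM across the WT samples in replicate order, against 468, 473 and 491 CPM across the KO samples. Its groups did not overlap, and the difference was small (log2 fold change 0.23, SE 0.071, edgeR adjusted p 0.0364). Arpc4, on chromosome 6 at 113378113 to 113390447, was 249.51, 250.02 and 199 CPM across the WT samples in replicate order, against 267, 286 and 285 CPM across the KO samples. WT replicate 3 was well below the other WT samples, and the log2 fold change of 0.26 (SE 0.10, adjusted p 0.0715) became 0.16 without it (adjusted p 0.0252).

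Arpc3, on chromosome 5 at 122391878 to 122406181, encodes a small subunit next to Arp3 and had the second largest difference among the members, at 157, 169.7 and 147 CPM across the WT samples in replicate order, against 212, 197 and 211 CPM across the KO samples. Its log2 fold change was 0.39 (SE 0.076; 95% interval 0.21 to 0.56; edgeR adjusted p 0.00548), again under the fold cutoff. Arpc5, on chromosome 1 at 152766542 to 152775580, encodes the small subunit that helps to anchor Arp2 and was the exception to the separation of the groups. It was 441, 496 and 346 CPM across the WT samples in replicate order, against 454, 472 and 480.2 CPM across the KO samples. WT replicate 2 lay above all KO samples, WT replicate 1 just below them and WT replicate 3 far below them, so the groups overlapped, and the log2 fold change of 0.13 (SE 0.12; 95% interval -0.16 to 0.42; adjusted p 0.442) became -0.0036 without WT replicate 3 (adjusted p 0.966).

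Arpc1a and Arpc1b encode alternative forms of the WD-repeat subunit that faces the activators, and lie close together on chromosome 5, at 145083869 to 145108756 and at 145114256 to 145128186. Arpc1a was the least abundant member in counts, at 69.4, 66.7 and 62.6 CPM across the WT samples in replicate order, against 86.3, 82.4 and 76.8 CPM across the KO samples. Arpc1b was 391, 381 and 340.5 CPM across the WT samples in replicate order, against 471, 453 and 477 CPM across the KO samples. Both were higher in every KO sample than in every WT sample, by similar amounts, with log2 fold changes of 0.31 (SE 0.076, adjusted p 0.0154) and 0.33 (SE 0.074, adjusted p 0.00977).

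The activators were then compared. Wasf2, on chromosome 4 at 133130531 to 133199748, encodes WAVE2, the activator that acts downstream of the GTPase Rac, and was 285, 251 and 270.5 CPM across the WT samples in replicate order, against 346, 361 and 345 CPM across the KO samples. Its groups did not overlap (log2 fold change 0.38, SE 0.071, edgeR adjusted p 0.00435), and the value was 0.38 without WT replicate 3. Was, on chromosome X at 8081466 to 8090491, encodes WASP, which acts downstream of Cdc42, and was 203, 204 and 193 CPM across the WT samples in replicate order, against 223, 212 and 218 CPM across the KO samples. The groups did not overlap here either, but the difference was the smallest among the members and did not pass (log2 fold change 0.12, 95% interval -0.022 to 0.26, adjusted p 0.161). This interval excludes a rise of 1.5-fold in Was. With GC and length offsets the log2 fold change of Was was 0.21 (SE 0.056, adjusted p 0.0210), so whether its adjusted p was under 0.05 depended on that correction. Was stayed under the fold cutoff and was not called there either.

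**Figure D2:**
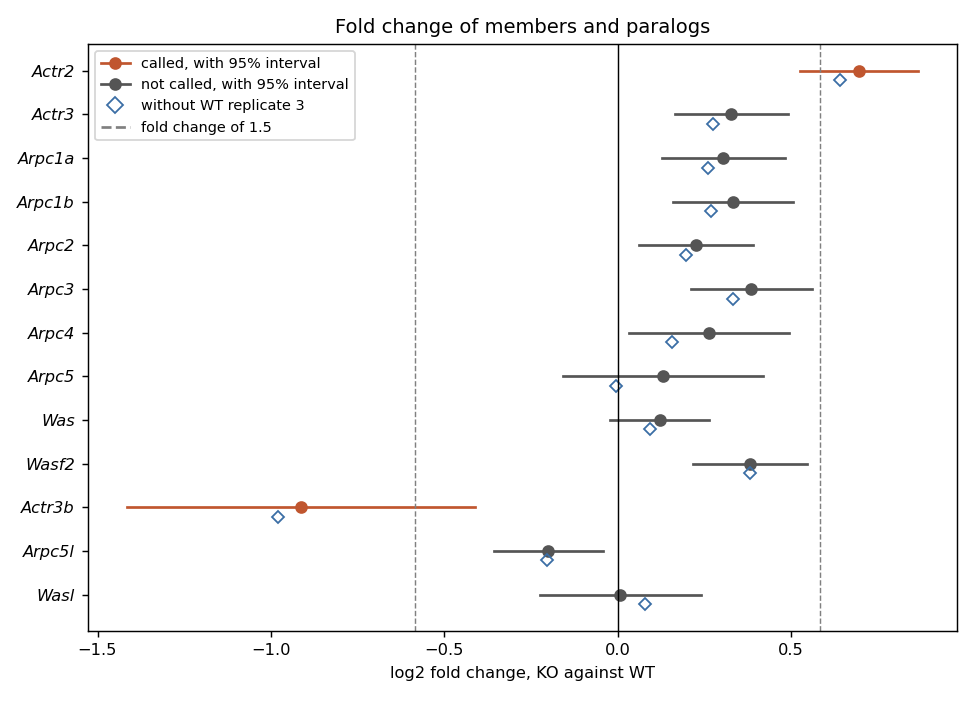
Log2 fold change of KO against WT for the 10 members and for the paralogs Actr3b, Arpc5l and Wasl, with 95% intervals from edgeR as lines and the value without WT replicate 3 as diamonds. Actr2 at 0.70 is the member beyond the dashed line at a fold change of 1.5, and Actr3b at -0.91 lies beyond the line on the other side.

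To describe whether the subunits moved by like amounts, each subunit gene was expressed as a share of the summed counts of the 8 subunit genes in its sample, which does not depend on how the libraries are scaled. The 8 genes together came to 2937, 3126 and 2642 CPM across the WT samples, against 3678, 3656 and 3709.9 CPM across the KO samples, so KO had 1.27 times the WT mean, and 1.21 times without Actr2. The share of Actr2 was 13.8% ± 0.283 (SD, n = 3) in WT and 17.7% ± 0.461 (SD, n = 3) in KO. The share of Arpc5 was 14.7% ± 1.42 (SD, n = 3) in WT and 12.7% ± 0.340 (SD, n = 3) in KO, and that of Arpc2 was 14.1% ± 0.765 (SD, n = 3) in WT and 13.0% ± 0.267 (SD, n = 3) in KO. For Arpc1a, Arpc1b, Arpc3, Arpc4 and Actr3 the shares of the genotypes overlapped, and that of Actr3, the largest, was 28.9% ± 0.565 (SD, n = 3) in WT and 28.5% ± 0.219 (SD, n = 3) in KO. Among the 8 subunit genes the log2 fold changes spanned 0.56, and among the 7 other than Actr2 they spanned 0.25. Actr2 exceeded the next subunit gene, Arpc3, by 0.31.

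**Figure D3:**
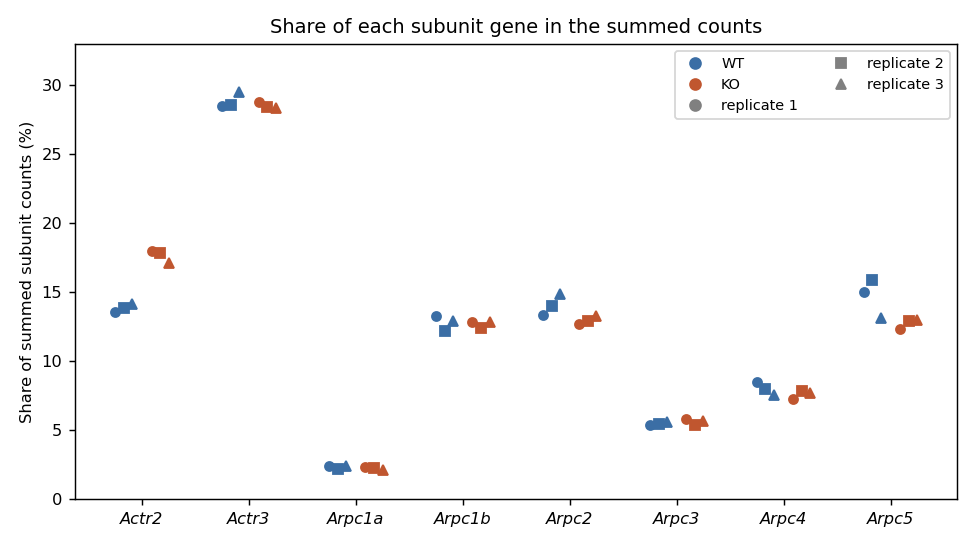
Share of each subunit gene in the summed counts of the 8 subunit genes, in percent from 0, for each sample. Actr2 took 13.6% to 14.1% in WT and 17.1% to 18.0% in KO, while Actr3 stayed between 28.4% and 29.5% in all samples.

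Levels of different genes were compared only per transcript length, as CPM per kilobase. With the length of the principal transcript, WT levels were 326 ± 22.0 for Actr3, 283 ± 17.9 for Arpc2, 223 ± 39.6 for Arpc5 and 176 ± 12.5 for Arpc3 (mean ± SD, n = 3). Lower levels were seen for Arpc1b at 119 ± 8.60, Actr2 at 111 ± 8.05, Arpc4 at 103 ± 13.0 and Arpc1a at 40.6 ± 2.08. In this order the ranges of the WT samples of Arpc5 and Arpc3 overlapped, as did those of Arpc1b, Actr2 and Arpc4. All genes were measured in the same samples, and their order within each sample was not compared. In KO, Actr2 reached 179 ± 3.66 CPM per kilobase, above Arpc1b at 150.4 ± 4.03 and Arpc4 at 123 ± 4.85, and Actr3 reached 409.6 ± 3.54. Per kilobase, Was was 94.7 ± 2.81 in WT and 103 ± 2.44 in KO, and Wasf2 was 47.7 ± 3.05 and 62.1 ± 1.59. The principal transcripts were chosen after the median length over annotated transcripts, 667 bases for Actr3 against 2565, was seen to include short fragments. With the median length, Actr3 was again the highest subunit gene and Arpc1a the lowest. The place of Actr2 in KO depended on the length used. With the median length, KO levels were 671 ± 18.0 for Arpc1b and 264 ± 10.4 for Arpc4, both above Actr2 at 179 ± 3.66. The highest gene exceeded the lowest by 21.0 times with the median length, against 8.04 times with the principal transcript. For each subunit gene the principal transcript was as long as the longest, so the longest transcript gave the same value.

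Some positions of the complex can be filled by a second gene. Actr3b and Arpc5l encode such forms of Arp3 and of the Arpc5 subunit, and both were lower in KO. Actr3b, on chromosome 5 at 25759941 to 25850691, was far less abundant than Actr3, at 5.16, 5.08 and 4.48 CPM across the WT samples in replicate order, against 2.74, 2.86 and 2.21 CPM across the KO samples. It was called lower (log2 fold change -0.91, SE 0.22, edgeR adjusted p 0.0125). Arpc5l was 83.2 ± 1.33 CPM on average in WT and 72.5 ± 3.68 CPM on average in KO (SD, n = 3), and its log2 fold change of -0.20 (adjusted p 0.0491) was under the fold cutoff. Wasl, which encodes N-WASP, the widely expressed relative of WASP, was 45.4 ± 5.02 CPM on average in WT and 45.7 ± 2.62 CPM on average in KO (95% interval -0.23 to 0.24; adjusted p 0.958). Wasf1 and Wasf3 were not analysed here.

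The shares within these pairs were compared by two-sided exact permutation tests, for which 3 against 3 samples cannot go below p = 0.10, with adjustment over 4 shares. Of the counts of Arpc5 and Arpc5l, Arpc5 took 84.3%, 85.4% and 80.6% in WT replicates 1 to 3, and 86.0%, 86.2% and 87.5% in KO replicates 1 to 3, and the groups did not overlap (exact p = 0.10, adjusted p = 0.20). WT replicate 3 had the lowest share and KO the highest. Of the counts of Actr3 and Actr3b, Actr3 took 99.39%, 99.43% and 99.43% in WT replicates 1 to 3, and 99.74%, 99.73% and 99.79% in KO replicates 1 to 3, again without overlap (exact p = 0.10, adjusted p = 0.20). The share of Arpc1b in Arpc1a and Arpc1b was 84.8% ± 0.332 in WT and 85.1% ± 0.914 in KO (SD, n = 3; exact p = 0.80). The share of Was in Was and Wasl was 81.5% ± 2.04 and 82.7% ± 1.13 (exact p = 0.40). In both, the means differed by less than the larger SD.

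To place the members among the genes they work with, 10 further lists of actin regulators were examined, which held 103 genes, of which 99 were tested. Of these, 15 were called higher and 6 lower, beside 11.9% and 12.5% of all genes at the same cutoffs, and the median log2 fold change was 0.11. With library totals alone as the scaling, 13 were called higher and 9 lower. Without the fold cutoff, 39 were higher and 13 lower at an edgeR adjusted p under 0.05. The shares of all genes were the 19.2% and 19.4% given above, here too not matched for expression level.

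Upstream of WASP, 2 of 18 genes were called higher and 0 lower by edgeR (median log2 fold change 0.10; DESeq2 also called 2, and 11 had an unadjusted p under 0.05). Arhgdia, which encodes an inhibitor of GTPase cycling, rose from a WT mean of 511 ± 44.6 CPM to a KO mean of 812 ± 12.1 CPM (log2 fold change of 0.67 with an SE of 0.079 and an edgeR adjusted p of 0.000612). Nck2, which encodes an adaptor that binds WASP, rose from a WT mean of 44.3 ± 3.50 CPM to a KO mean of 67.1 ± 3.54 CPM (log2 fold change of 0.60 with an SE of 0.086 and an edgeR adjusted p of 0.00138), and its log2 fold change was under the fold cutoff without WT replicate 3, at 0.53. The GTPase genes Cdc42 and Rac1 and the WASP-binding gene Wipf1 had log2 fold changes of 0.45, 0.51 and 0.50, under the cutoff, and 51.4% of the annotated exon bases of Rac1 are shared with Daglb on the opposite strand. In the WAVE complex, which holds WAVE2 inactive until Rac binds, 1 of 8 genes was called higher and 0 lower. This was Cyfip2, which rose from a WT mean of 385 ± 23.3 CPM to a KO mean of 624 ± 8.41 CPM (log2 fold change of 0.70 with an SE of 0.069 and an edgeR adjusted p of 0.000295), while its partner genes Nckap1l and Abi1 were at -0.012 and -0.062. Among the WASH complex and other activators, 0 of 9 genes were called by edgeR or by DESeq2, and 4 had an unadjusted p under 0.05. The most abundant of them, Hcls1, which encodes a cortactin relative of blood cells, was 378 ± 9.89 CPM on average in WT and 436 ± 19.1 CPM on average in KO (log2 fold change of 0.21 with an SE of 0.065 and an edgeR adjusted p of 0.0398).

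In the list of inhibitors of the complex, debranching factors and coronins, 2 of 8 genes were called lower and 0 higher. Coro2a, which encodes a coronin, fell from a WT mean of 485 ± 21.1 CPM to a KO mean of 248 ± 6.92 CPM (log2 fold change of -0.97 with an SE of 0.066 and an edgeR adjusted p of 5.47e-05). Pick1, whose product has been described to bind and inhibit the complex, fell from a WT mean of 35.3 ± 5.01 CPM to a KO mean of 22.4 ± 2.78 CPM (log2 fold change of -0.66 with an SE of 0.14 and an edgeR adjusted p of 0.00750), and 18.6% of its exon bases are shared with Gm49486 on the same strand. Its log2 fold change was under the fold cutoff with GC and length offsets (-0.55) and without KO replicate 3 (-0.58), which ends its call. Coro1a, the most abundant coronin gene of T cells, was at a log2 fold change of -0.052, and Gmfg, which encodes a debranching factor of blood cells, at 0.47. Among actin itself and the proteins that bind its monomers, Actg1 was the 1 gene of 9 that was called. It encodes gamma-actin and rose from a WT mean of 2062 ± 339 CPM to a KO mean of 4045 ± 15.6 CPM (log2 fold change of 0.97 with an SE of 0.12 and an edgeR adjusted p of 0.000671), with WT replicate 3 the lowest sample at 1678 CPM and a log2 fold change of 0.84 without it. Actb, which encodes beta-actin, was at 0.28 (adjusted p 0.210).

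Genes that sever, cap, extend or cross-link filaments were examined last. In the severing list 2 of 11 genes were called, both higher and both of the gelsolin family. Gsn rose from a WT mean of 26.6 ± 4.15 CPM to a KO mean of 59.3 ± 2.37 CPM (log2 fold change of 1.16 with an SE of 0.12 and an edgeR adjusted p of 0.000368) and Scin rose from a WT mean of 0.632 ± 0.237 CPM to a KO mean of 31.1 ± 1.74 CPM (log2 fold change of 5.60 with an SE of 0.23 and an edgeR adjusted p of 7.92e-06). Among capping genes, 1 of 9 was called, Carmil1, which encodes a regulator of capping protein and rose from a WT mean of 2.14 ± 0.165 CPM to a KO mean of 4.08 ± 0.133 CPM (log2 fold change of 0.93 with an SE of 0.22 and an edgeR adjusted p of 0.0125). The formins and Ena/VASP genes, which extend unbranched filaments, were mixed, with 2 of 12 called higher and 2 lower. Diaph3 rose from a WT mean of 14.6 ± 3.73 CPM to a KO mean of 70.3 ± 1.41 CPM and Enah from a WT mean of 6.94 ± 3.01 CPM to a KO mean of 21.4 ± 1.04 CPM, which gave log2 fold changes of 2.26 and 1.63 (adjusted p 0.000107 and 0.00262). Fmnl3 fell from a WT mean of 139 ± 17.2 CPM to a KO mean of 61.5 ± 3.07 CPM and Daam1 from a WT mean of 16.8 ± 2.61 CPM to a KO mean of 10.9 ± 0.974 CPM, which gave log2 fold changes of -1.17 and -0.62 (adjusted p 0.000154 and 0.0134). The call of Daam1 was lost without WT replicate 1 (-0.52) and without KO replicate 3 (-0.55). The list with the most calls was that of crosslinkers and membrane linkers, with 6 of 13 genes called higher and 1 lower. Vcl, which encodes vinculin, rose from a WT mean of 6.63 ± 2.39 CPM to a KO mean of 22.5 ± 1.73 CPM (log2 fold change of 1.76 with an SE of 0.24 and an edgeR adjusted p of 0.00104), and 25.5% of the exon bases of Vcl are shared with Ap3m1 on the opposite strand. Actn1, which encodes an alpha-actinin, fell from a WT mean of 169.7 ± 23.0 CPM to a KO mean of 98.2 ± 2.57 CPM (log2 fold change of -0.79 with an SE of 0.10 and an edgeR adjusted p of 0.00091). Without WT replicate 3 this list had 4 genes called higher and 1 lower.

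**Figure D4:**
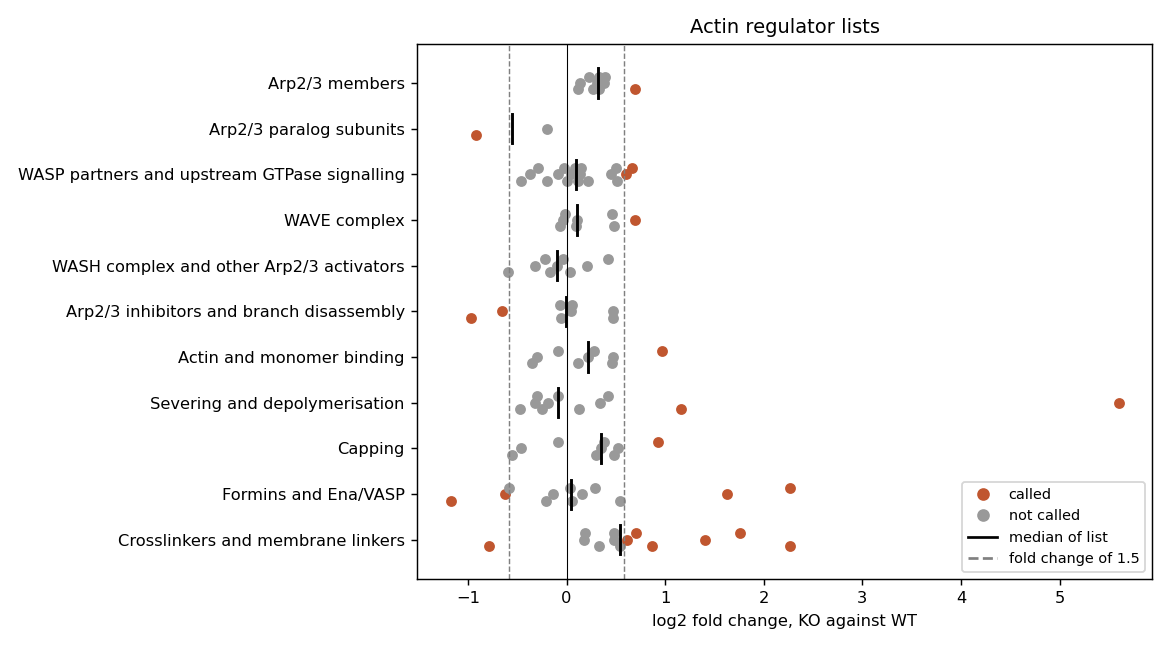
Log2 fold change of KO against WT for each gene tested in the lists, with called genes colored, the median of each list as a bar, and dashed lines at a fold change of 1.5. The members lie between 0.12 and 0.70 and the capping genes between -0.55 and 0.93, while the severing list reaches 5.60 for Scin.

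The summed markers of proliferation, of myeloid cells and of NK cells were higher in every KO sample than in every WT sample. The sums of the CD8 T cell, B cell and red blood cell markers overlapped between the genotypes. The 8 proliferation genes Mki67, Top2a, Ccnb1, Cdk1, Mcm2, Mcm5, Pcna and Tyms were all called higher, with sums of 698 to 1303 CPM in WT and 3384 to 3557 CPM in KO. WT replicate 3, the lowest of the 6 samples for each member except Arpc2 and Wasf2, had the lowest proliferation sum, 698 CPM against 1303 and 1294 CPM in WT replicates 1 and 2. Of 5 myeloid markers, 4 were analysed (Lyz2, Csf1r, Itgam and Fcgr1) and all 4 were called higher, with sums of 8.41 to 19.4 CPM in WT and 38.2 to 43.1 CPM in KO. WT replicate 3 had the lowest of these sums and held no count of Fcgr1. The 2 CD8 T cell markers summed to 9.32 to 13.2 CPM in WT and 12.0 to 12.7 CPM in KO with 1 called, the 4 B cell markers to 4.48 to 9.78 CPM in WT and 6.46 to 8.46 CPM in KO with 0 called, the 2 NK cell markers to 1.71 to 2.58 CPM in WT and 3.39 to 5.05 CPM in KO with 1 called, and the 3 red blood cell markers to 16.0 to 67.1 CPM in WT and 28.5 to 33.5 CPM in KO with 0 called. Of 4 stromal markers, 3 were analysed and summed to 192 to 206 CPM in WT and 137 to 145 CPM in KO, with 0 called. Nearly all of this sum was Pecam1, with means of 197 CPM in WT and 137 CPM in KO. Col1a1 averaged 2.59 CPM in WT and 2.42 CPM in KO, and Cdh5 averaged 0.349 and 0.476 CPM. Platelet markers were not analysed here. The part of these cells and of cycling in the differences of the members was not tested. The study reports autoimmune inflammation in the KO mice, and its part in these differences was not tested either.

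The counts of some members carry a limit from their sequence. The study kept 1 alignment per read, and reads of near-identical copies can then be assigned to the wrong one. The Actr3 transcript resembles the processed pseudogene Gm8822 (98.8% over 2348 bases) and the Arpc1b transcript resembles Gm5637 (97.5% over 1119 bases). The Actr2 transcript resembles Gm6828 (94.1% over 1189 bases), which covers part of its 3631 bases, and Arpc1a, Arpc2 and Arpc5 each resemble a pseudogene over a shorter stretch. Arpc1b shares 18.2% of its annotated exon bases with Pdap1 on the opposite strand, and Arpc4 shares 12.2% with Ttll3 on the same strand. Whether reads were counted by strand was not stated, so these counts are uncertain to that extent.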

How the data were processed

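RNA-Seq counts of 3 WT and 3 KO Treg samples were used, grouped by the genotype in the labels. The study's methods name SOAPnuke for read filtering, HISAT2 for alignment to mm10 with a single alignment kept for each read, and StringTie for gene levels. The authors deposited raw counts, whole numbers without normalization, in 1 table. How the whole numbers arose, the annotation and the use of strand are not given in the sources used here. No gene summed to fewer than 60 counts, so rare genes had been removed, and of 13709 rows 13594 were tested.

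Counts were tested with R 4.3.3 and edgeR 4.0.16 (filterByExpr with a minimum count of 10, TMM scaling, two-sided quasi-likelihood F-test over all 6 samples, no covariate), and p-values were adjusted by Benjamini-Hochberg over all genes tested. A gene was called at the study's cutoffs of a fold change over 1.5, p under 0.05 and adjusted p under 0.1. The SE is the absolute log2 fold change divided by the square root of F, and intervals are at 95%. The script was tested on simulated data. DESeq2 1.42.0, other scalings and filters, GC and length offsets, a replicate block and leaving out each sample were alternatives.

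The members and gene lists were chosen with earlier results of these data known. Besides the members and their paralogs, every called gene of a list with at most 4 calls was named, in a list with more calls the 2 largest rises and falls of called genes averaging 5 CPM or more, and in a list with no call the gene with the largest mean. One gene that this rule names is not reported here. Other genes of the lists that are given a value (Cdc42, Rac1, Wipf1, Nckap1l, Abi1, Coro1a, Gmfg and Actb) were chosen after their values were seen. Positions, promoters and motifs came from RefSeq GRCm38.p6, and lengths, exon overlaps and look-alikes from GENCODE M21. At the depths here, 3 counts correspond to 0.0737 to 0.0937 CPM, which covers counting error only.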

Additional observations from a re-analysis of the deposited data

How the results depend on the processing

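Under DESeq2, other scalings, other filters on low counts, GC and length offsets, and without each sample in turn, Actr2 was the 1 member called, and across all genes leaving out 1 sample gave 2867 to 3667 calls against 3318. Without the fold cutoff, at an adjusted p under 0.05, 5244 genes, 7 members and 52 of the other actin regulators were called. Under glmTreat 1686 genes, 0 members and 12 of the other actin regulators were called, so the call of Actr2 depends on testing its fold change against 0. These differences follow from the cutoffs themselves. Across 15 settings, 1 of the 10 members reversed in 1 setting, which was Arpc5, at -0.0036 without WT replicate 3, with 0.25 without WT replicate 2 as its highest value. Wasl, whose log2 fold change was near 0, was -0.028 with library totals alone, -0.00013 with GC and length offsets, and -0.075 to 0.079 when 1 sample was left out. The difference in the share of Arpc1b in Arpc1a and Arpc1b was -0.28 to 0.54 percentage points when 1 sample was left out. With the principal transcript, chosen after seeing the data, the highest subunit gene exceeded the lowest by 8.04 times, against 21.0 times with the median length. The longest transcript had the same length for each subunit gene, so it was not a separate check. Among the genes named outside the members, and apart from glmTreat, calls were lost for Nck2 with library totals alone (0.56), without WT replicate 3 (0.53) and without KO replicate 1 (0.55), for Pick1 with GC and length offsets (-0.55) and without KO replicate 3 (-0.58), and for Daam1 without WT replicate 1 (-0.52) and without KO replicate 3 (-0.55).

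Samples with the same number did not deviate together (correlations of 0.038, 0.040 and -0.012), so the numbers were not taken to pair the samples. With a replicate block 3190 genes, 1 member and 21 of the other actin regulators were called, and the log2 fold changes of the subunit genes spanned 0.55.

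With 3 samples per genotype, the exact tests of the shares could not pass 0.05. Genes under the limit of the deposited table were not analysed here.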
